A study of Rattus norvegicus with 8 samples.

Results

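The genes described here encode 8 channels that help to set the resting potential of brain cells, listed by name and looked up in tables of 17168 genes. All 8 members were found and all 8 passed the low-count filter: the hyperpolarisation-activated cation channels Hcn2, Hcn3 and Hcn4, the tandem-pore potassium leak channels Kcnk1, Kcnk2 and Kcnk9, and the inward rectifier potassium channels Kcnj4 and Kcnj10. The libraries are RNA-seq profiles of whole homogenate of medial prefrontal cortex from male Sprague-Dawley rats, 4 from rats of high motor impulsivity (HI) and 4 from rats of low motor impulsivity (LI). Rats were ranked by how often they responded too early in the 1-CSRT task, a nose-poke test of waiting for a cue, HI being the top and LI the bottom quartile, with 4 to 6 rats per phenotype per the labels. No drug, allele or age is given for either group, and whether each library is a separate animal is not stated, so p-values measure the spread between these libraries, which may in part be technical. The comparison asks which transcripts differ between inherently impulsive rats and rats at the other end of the scale.

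HCN channels open when a neuron is hyperpolarised and pass a depolarising cation current that cyclic AMP increases. In prefrontal pyramidal cells this current lies mainly in dendrites, where its opening weakens the effect of synaptic input. Tandem-pore (K2P) channels leak potassium at rest and hold the membrane negative, and Kir channels pass potassium more readily inward than outward, in neurons near the resting potential and in astrocytes as a route for clearing potassium.

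Total counts, after rounding of the deposited expected counts, were between 7354416 and 9476656 per library. Ribosomal RNA (Rn45s and Rn28s) took between 0.406% and 25.5% of counts in HI libraries and between 0.418% and 6.42% in LI libraries. The share of 25.5% was that of HI2, against at most 6.42% in any other library. On the first principal component of log2 CPM, HI1, HI2, LI1 and LI2 lay between -25.9 and -13.0, HI3 at 0.50 and LI4 at 2.05. Highest on it were HI4 (51.0) and LI3 (34.6), the libraries with the least ribosomal RNA. Summed CPM (counts scaled to a common library size with TMM factors) of the 4 pan-neuronal markers was also highest in these libraries, at 9495 in HI4 and 7793 in LI3, against 3309 to 5380 in the other 6. Snap25 made up most of these sums (7193 CPM in HI4 and 5848 CPM in LI3). Snap25, Syt1 and Rbfox3 were each higher in HI4 and LI3 than in the other 6 libraries, and Tubb3 was lower, at 460.4 CPM in HI4 and 539.9 CPM in LI3, against 546 to 628 CPM. The cortical excitatory markers, 5 of 5 measured, summed to between 4738 and 6945 CPM in HI and between 4663 and 6528 CPM in LI. Each fold change of a member is therefore given with and without HI4 and LI3, an alternative chosen after seeing the data. Where these are the lowest libraries of a member, leaving them out by itself reduces its spread.

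The sequence just before the transcription start is shown for the members with a listed promoter, Hcn2, Kcnj4, Kcnj10 and Kcnk2. Levels of the first 3 were lowest in the same 2 libraries, which did not hold of Kcnk2. It did hold of Hcn3 and Kcnk9, for which no window was listed. A link between sequence and level was not tested. Sequences are 250 bases from RefSeq (GRCr8), 5′ to 3′ on the gene's strand, and 4 of the 8 members matched the promoter table. Capitals mark matches to 4 promoter motifs, each searched on both strands, with no overlap between matches. The GC box was searched as the letters GGGCGG. The box named for its letters CCAAT was the next motif searched. For the core of the cyclic AMP response element, TGACG was used. The TATA box was searched for with the letters TATAAA. The Hcn2 window is chr7:10639458-10639707 (minus strand), that of Kcnj4 chr7:112954548-112954797 (minus strand), that of Kcnj10 chr13:87334260-87334509 (plus strand), and that of Kcnk2, the more upstream of its 2 listed starts, chr13:103494687-103494936 (minus strand).
Hcn2: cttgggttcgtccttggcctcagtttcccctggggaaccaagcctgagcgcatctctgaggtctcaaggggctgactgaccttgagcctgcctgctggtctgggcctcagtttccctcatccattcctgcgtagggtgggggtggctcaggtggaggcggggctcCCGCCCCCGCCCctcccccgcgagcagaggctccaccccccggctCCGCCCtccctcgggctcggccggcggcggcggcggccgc
Kcnj4: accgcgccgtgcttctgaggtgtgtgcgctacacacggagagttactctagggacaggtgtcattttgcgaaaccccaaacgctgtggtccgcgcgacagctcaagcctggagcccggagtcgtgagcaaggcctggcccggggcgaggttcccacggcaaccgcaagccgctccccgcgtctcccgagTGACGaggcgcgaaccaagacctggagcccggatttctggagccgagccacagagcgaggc
Kcnj10: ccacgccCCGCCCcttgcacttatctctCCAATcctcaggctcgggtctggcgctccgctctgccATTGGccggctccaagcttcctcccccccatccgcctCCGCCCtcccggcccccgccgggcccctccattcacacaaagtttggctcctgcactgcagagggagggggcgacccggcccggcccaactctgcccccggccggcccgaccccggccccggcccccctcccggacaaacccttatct
Kcnk2: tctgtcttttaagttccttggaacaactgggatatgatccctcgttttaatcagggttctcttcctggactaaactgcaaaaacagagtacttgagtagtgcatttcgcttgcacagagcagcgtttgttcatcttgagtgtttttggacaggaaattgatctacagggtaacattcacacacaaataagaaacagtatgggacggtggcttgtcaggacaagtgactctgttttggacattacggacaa

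The Hcn2 window held 3 GC boxes, the Kcnj10 window 2 GC boxes and 2 CCAAT boxes, and the Kcnj4 window 1 core of the cyclic AMP response element, while the Kcnk2 window held 0 of these motifs. Over 33469 windows of the same length, 30.5% held a GC box, 34% a CCAAT box, 18.2% the core of the cyclic AMP response element and 12.9% a TATA box. The share of G and C was 71.6% for Hcn2, 65.6% for Kcnj4 and 72.4% for Kcnj10, against a median of 51.2% over all windows. The Kcnk2 window was poorer in G and C, at 42%.

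In transcript level per length, the members fell into levels that kept their order in every library. The deposited TPM (a level corrected for transcript length) averaged 108 ± 26.7 for Hcn2, 107 ± 12.2 for Kcnk1 and 101 ± 31.8 for Kcnj4 (SD, 8 libraries). Hcn2 and Kcnk1 each held ranks between 1 and 3, and Kcnj4 rank 2 or 3. The order of these 3 thus changed between libraries and was not distinguishable. Kcnj10, at 50.4 ± 15.7 TPM, had rank 4 of the 8 in each of the 8 libraries. Kcnk2 (26.4 ± 5.44 TPM), Kcnk9 (25.7 ± 7.74 TPM) and Hcn3 (18.5 ± 3.36 TPM) held ranks 5 to 7 and overlapped. Hcn4 was last in each library, at 6.56 ± 1.70 TPM. Without HI4 and LI3, Kcnj10 and Hcn4 kept ranks 4 and 8, and the means of Hcn2, Kcnk1 and Kcnj4 were 121, 111 and 116 TPM. The TPM of Kcnk2 rests on an average transcript length that itself varied, from 2882.46 bases in HI2 to 3159 bases in HI1, LI3 and LI4, with 2 transcripts listed for it.

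No member differed between HI and LI beyond the spread of the libraries. By edgeR's quasi-likelihood test, 0 of the 8 members had an adjusted p under 0.1, 0 had an unadjusted p under 0.05, and HI and LI overlapped in every member. Over all 11631 genes tested, 0% passed the adjusted threshold, 4.16% had an unadjusted p under 0.05 and 3.46% had HI and LI libraries that did not overlap. The adjusted p was 1.00 for each member. Fold changes are log2 HI minus LI with their SE. They were positive in 7 of the 8 members and negative in 1, with a median of 0.09, while 48.5% of all tested genes had a positive value and their median was -0.0069. Without HI4 and LI3 they were also positive in 7 and negative in 1, with a median of 0.12. The negative member was then Hcn3 (-0.0033) and no longer Hcn2 (0.0089). Of all genes then tested, 48.2% were positive. Over the other settings tried, between 4 and 8 members were positive.

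**Figure D1:**
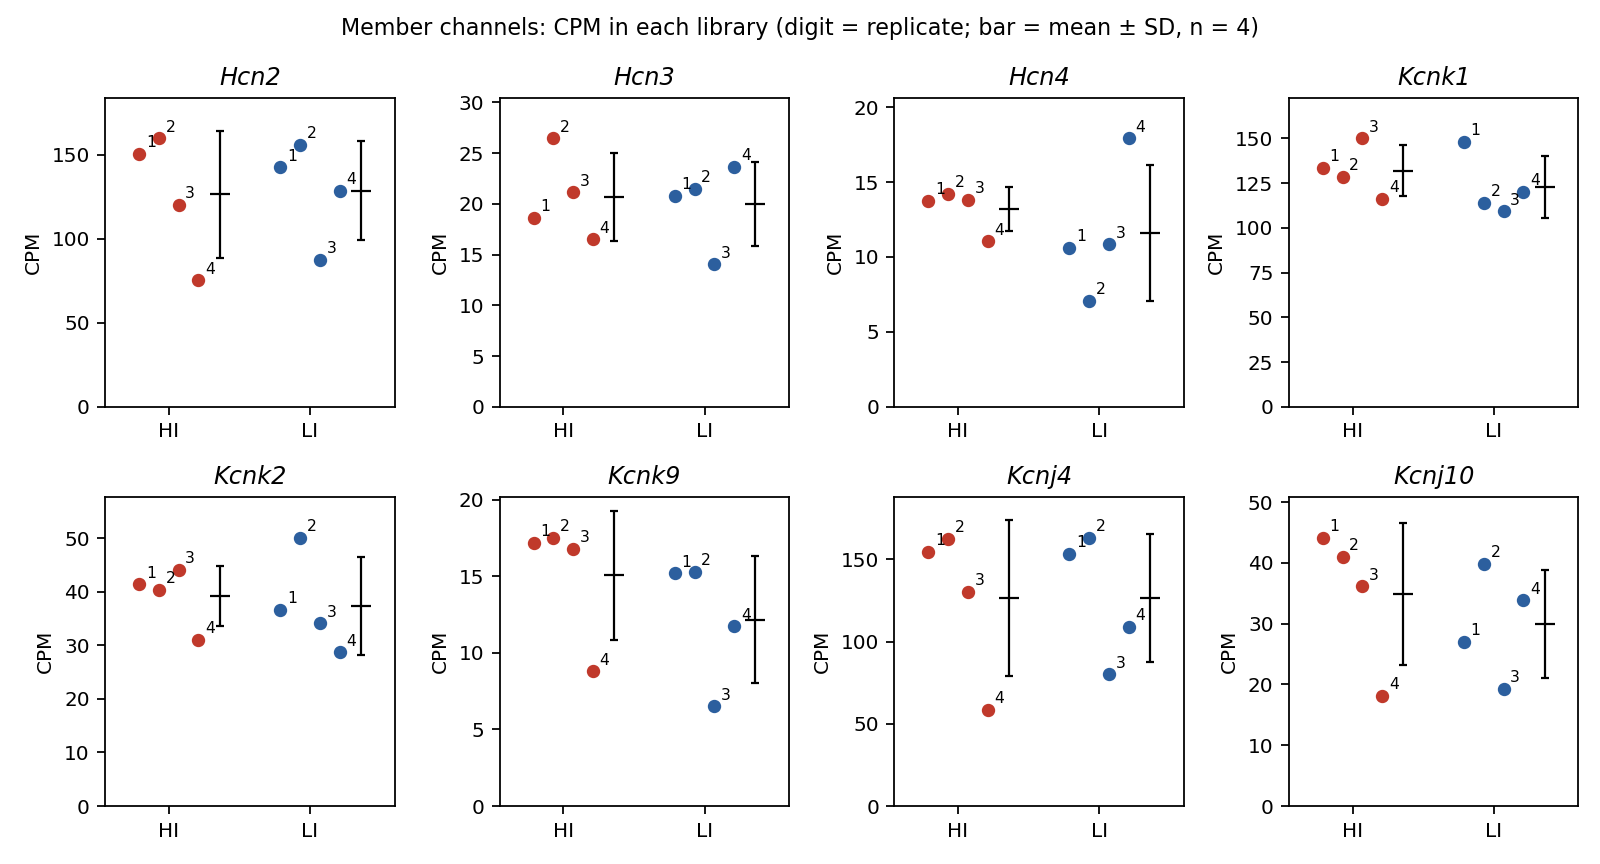
Each panel plots CPM of 1 channel gene in the 4 HI (red) and 4 LI (blue) libraries, with the replicate number beside each point and mean ± SD (n = 4) as a black bar; each axis starts at 0. HI and LI overlap in all 8 panels, and replicate 4 of HI and replicate 3 of LI lie below all other 6 libraries in Hcn2, Hcn3, Kcnk9, Kcnj4 and Kcnj10.

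Hcn2 encodes an HCN subunit with a strong response to cyclic AMP. It stood at 151, 160, 120 and 75.3 CPM in HI1 to HI4, against 143, 156, 87.5 and 129 CPM in LI1 to LI4. HI4 and LI3 were the lowest libraries, and the other 6 lay between 120 and 160 CPM. Its log2 fold change was -0.03 ± 0.24 (95% interval -0.57 to 0.52), and without HI4 and LI3 it was 0.0089 ± 0.13 (-0.28 to 0.30).

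Hcn3, a subunit with little response to cyclic AMP, stood at 18.6, 26.4, 21.1 and 16.5 CPM in HI1 to HI4, against 20.8, 21.5, 14.0 and 23.7 CPM in LI1 to LI4. The highest library was HI2 and the lowest LI3. HI minus LI came to 0.04 ± 0.20 (-0.40 to 0.49), and without HI4 and LI3 it was -0.0033 ± 0.16. The gene span of Hcn3 overlaps that of Pklr in RefSeq, as does that of Kcnk2 with another protein-coding locus, and, since the sources used here do not say whether counting used strand, reads there could be shared.

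Hcn4, the slowly opening subunit known from the cardiac pacemaker and the thalamus, stood at 13.8, 14.2, 13.8 and 11.0 CPM in HI1 to HI4, against 10.6, 7.07, 10.8 and 17.9 CPM in LI1 to LI4. The LI libraries spread around the HI range on both sides, with LI2 the lowest and LI4 the highest of all 8. The SD was 1.45 CPM over the HI libraries and 4.54 CPM over the LI libraries, a difference in spread that was not tested. The log2 fold change was 0.18 ± 0.26 (-0.39 to 0.75). It was 0.22 ± 0.29 without HI4 and LI3, 0.0074 without LI2 and 0.46 without LI4. The summed CPM of 4 thalamic markers, all 4 with counts in every library, was between 45.2 and 51.6 in HI and between 44.1 and 73.5 in LI. It was highest in LI3, where Hcn4 was at 10.8 CPM. Of these markers, Prkcd averaged 19.1 CPM in HI and 26.2 CPM in LI. Lef1 averaged 4.75 and 4.24 CPM and so weighed little in the sum. The profile of Lef1 over the libraries was nonetheless the nearest to that of Hcn4 among all tested genes. The part of these markers in the Hcn4 value was not tested.

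Fractional expected counts arise where reads match more than 1 gene. Expected counts of Hcn3 were not whole in 6 of the 8 libraries, those of Hcn4 in 7 and those of Hcn2 in 3. The fractional parts of Hcn3 and Hcn4 summed to 1.00 in HI3, HI4, LI3 and LI4. In these 4 libraries Hcn3 had between 109.69 and 225.69 reads and Hcn4 between 83.28 and 171.31. In HI1, LI1 and LI2 that sum was 1.06, 1.04 and 0.94, and Hcn2 had fractions of 0.94, 0.96 and 0.06 there.

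The K2P leak channels showed the smallest and some of the larger spreads. Kcnk1 (TWIK-1), a weakly conducting leak channel of neurons and astrocytes, was the steadiest member, with a coefficient of variation of 12.1% over the 8 libraries; without HI4 and LI3 it was 11.0%, the same as for Hcn2. It stood at 133, 128, 150.0 and 116 CPM in HI1 to HI4, against 148, 114, 109 and 120 CPM in LI1 to LI4. HI3 and LI1 were the highest libraries, and the groups overlapped over most of their range. The log2 fold change was 0.10 ± 0.13 (-0.18 to 0.39), the narrowest interval of the 8, and 0.11 ± 0.12 without HI4 and LI3.

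Kcnk2 (TREK-1), a leak channel opened by stretch, warmth and lipids, stood at 41.4, 40.3, 44.1 and 31.0 CPM in HI1 to HI4, against 36.6, 50.1, 34.1 and 28.7 CPM in LI1 to LI4. LI2 was the highest library and LI4 the lowest. On the log2 scale HI minus LI was 0.07 ± 0.18 (-0.34 to 0.48), 0.13 ± 0.19 without HI4 and LI3, 0.24 without LI2 and -0.04 without LI4. In LI2 the summed CPM of 5 striatal markers was 667, against 254.7 to 304 in the HI libraries and 256 to 282 in the other LI libraries, and all 5 had counts in every library. Oligodendrocyte markers, 8 of 8 measured, also summed highest in LI2, at 6693 CPM against 2055 to 2245 in HI and 1750 to 3580 in the other LI libraries. Their part in the Kcnk2 value was not tested.

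Kcnk9 (TASK-3), an acid-sensitive leak channel, had the largest log2 fold change of the 8 in all 8 libraries, at 0.31 ± 0.30 (-0.36 to 0.97), with an unadjusted p of 0.330 in edgeR. It was 0.10 without LI3, 0.49 without HI4 and 0.15 when the share of ribosomal RNA, by far highest in HI2, entered the fit as a covariate. Hcn4 was the higher of the pair without LI3 (0.15), without LI4 (0.46, against 0.28 for Kcnk9) and with that covariate (0.18). Kcnk9 stood at 17.2, 17.5, 16.8 and 8.78 CPM in HI1 to HI4, against 15.2, 15.3, 6.51 and 11.7 CPM in LI1 to LI4. HI1, HI2 and HI3 lay above every LI library, and HI4 lay below all LI libraries but LI3. Without HI4 and LI3 the groups did not overlap in Kcnk9, the 1 member of 8 of which this held, against 10.1% of tested genes. The value was then 0.29 ± 0.16 (-0.06 to 0.64), with an unadjusted p of 0.0979 and an adjusted p of 0.983 in edgeR. Kcnk9 had between 51 and 166 reads per library, the fewest of the K2P members.

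The inward rectifiers had coefficients of variation of 31.7% (Kcnj4) and 30.6% (Kcnj10) over the 8 libraries, close to the 30.5% of Kcnk9. Without HI4 and LI3, the lowest libraries for each of these genes, the coefficients were 14.8% for Kcnj4, 16.5% for Kcnj10 and 13.7% for Kcnk9. Kcnj4 (Kir2.3), a strong inward rectifier of forebrain neurons, stood at 155, 162, 130 and 58.7 CPM in HI1 to HI4, against 153, 163, 80.1 and 109 CPM in LI1 to LI4. The highest library held 2.78 times the lowest, the widest range of the 8 members, and the lowest were HI4 and LI3. HI libraries averaged 127 ± 47.2 CPM and LI libraries 126 ± 38.9 CPM (SD, n = 4 each). The log2 fold change was 0.00082 ± 0.32 (-0.70 to 0.71), so differences inside that interval could not be seen with 4 libraries per group. Without HI4 and LI3 it was 0.07 ± 0.16 (-0.28 to 0.43).

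Kcnj10 (Kir4.1), the main potassium channel of astrocytes and also present in oligodendrocytes, stood at 44.1, 41.0, 36.1 and 18.1 CPM in HI1 to HI4, against 27.0, 39.9, 19.3 and 33.8 CPM in LI1 to LI4. HI1 and HI2 were the highest libraries, and HI4 and LI3 the lowest. The log2 fold change was 0.22 ± 0.29 (-0.43 to 0.87), and 0.27 ± 0.16 (-0.09 to 0.63) without HI4 and LI3. It was 0.057 without LI3, 0.43 without HI4 and 0.052 with ribosomal RNA as a covariate. In homogenate, fewer cells of a type and less RNA per cell cannot be told apart. The summed CPM of 10 astrocyte markers, all with counts in every library, was between 2888 and 3565 in HI and between 3078 and 3520 in LI, and 5 of the 10 had positive and 5 negative fold changes, with a median of -0.00042. Oligodendrocyte markers had negative fold changes in 8 of 8, with a median of -0.61 and 0 past the threshold. Their summed CPM overlapped between groups, at 2055 to 2245 in HI against 1750 in LI1 and 6693 in LI2, the lowest and highest LI libraries. In HI4, where Kcnj10 was lowest, the astrocyte sum was the highest of the 8, at 3565 CPM, but the mean of the 10 markers, in log2 CPM relative to the average library, was -0.07, within the range of -0.18 to 0.22 over the other HI libraries. Against the mean of these markers, Kcnj10 lay 0.07 ± 0.52 log2 units above its average in HI and 0.07 ± 0.38 below it in LI, a difference of 0.14 (SD, n = 4 each, two-sided exact permutation p = 0.629, where 0.0286 is the smallest possible).

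**Figure D2:**
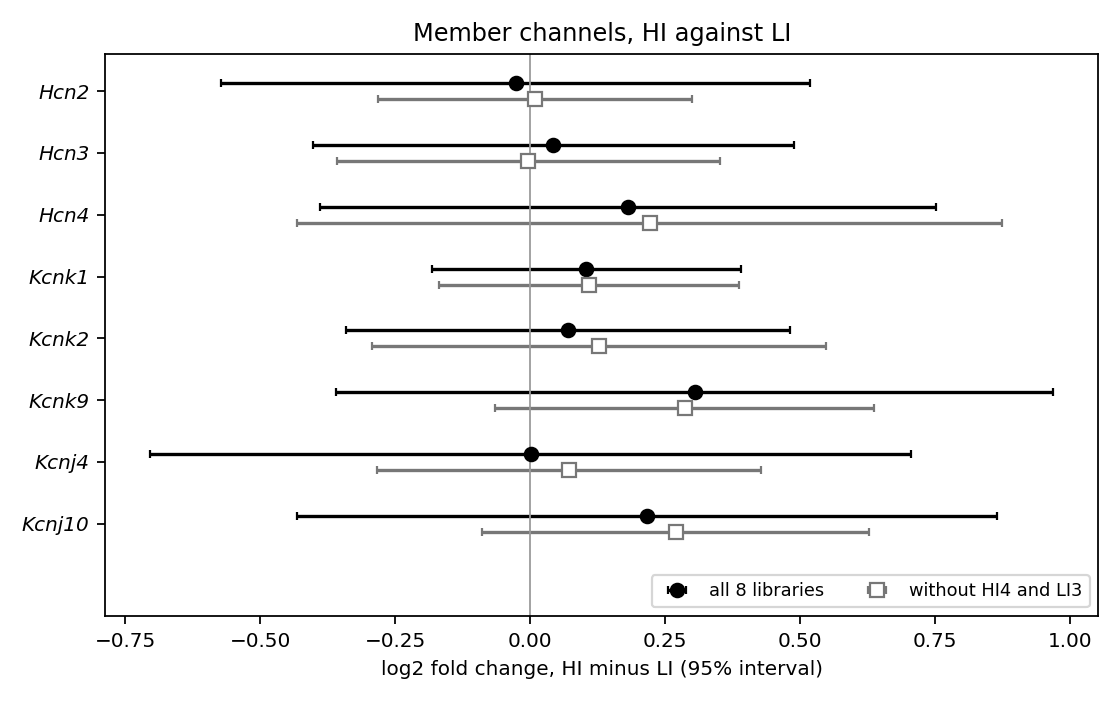
Points give the log2 fold change of each channel gene, HI minus LI, with 95% intervals, from all 8 libraries (black) and without HI4 and LI3 (grey squares). All 16 intervals include 0. The interval of Hcn2 is -0.28 to 0.30 without the 2 libraries, against -0.57 to 0.52 with them. HI4 and LI3 are the lowest Hcn2 libraries of their groups, so leaving them out by itself reduces the spread.

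Across libraries, 5 of the 8 members shared a pattern in which 1 HI and 1 LI library were the lowest. HI4 and LI3 both lay below the other 6 libraries in 5 of the 8 members (Hcn2, Hcn3, Kcnk9, Kcnj4 and Kcnj10), and both lay above them in 0 members. Of all tested genes, 22.3% had both libraries below and 19.9% had both above, so many other genes separate these libraries too. In log2 CPM, Kcnj4 was lower by -1.29 in HI4 and by -0.84 in LI3 relative to the mean of the other 6, and Kcnj10 by -1.0 in HI4 and by -0.91 in LI3. For Kcnk9 the differences were -0.80 in HI4 and -1.22 in LI3, and for Hcn2 -0.92 in HI4 and -0.70 in LI3. Kcnk1 differed by -0.18 in HI4 and -0.27 in LI3, and Hcn4 by -0.16 and -0.19 in the same libraries. The low ribosomal RNA of HI4 and LI3 and their high Snap25, Syt1 and Rbfox3, though not Tubb3, moved with this pattern, and their part in it was not tested. In Hcn2, replicates 1 and 2 of both groups (143 to 160 CPM) also lay above replicates 3 and 4 (75.3 to 129 CPM). The same held in Kcnj4 (153 to 163 CPM against 58.7 to 130 CPM) but in no other member. The first principal component of all tested genes split the libraries in the same way (-25.9 to -13.0 against 0.50 to 51.0). The split is thus not particular to these genes, and the share of all tested genes that show it was not counted.

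**Figure D3:**
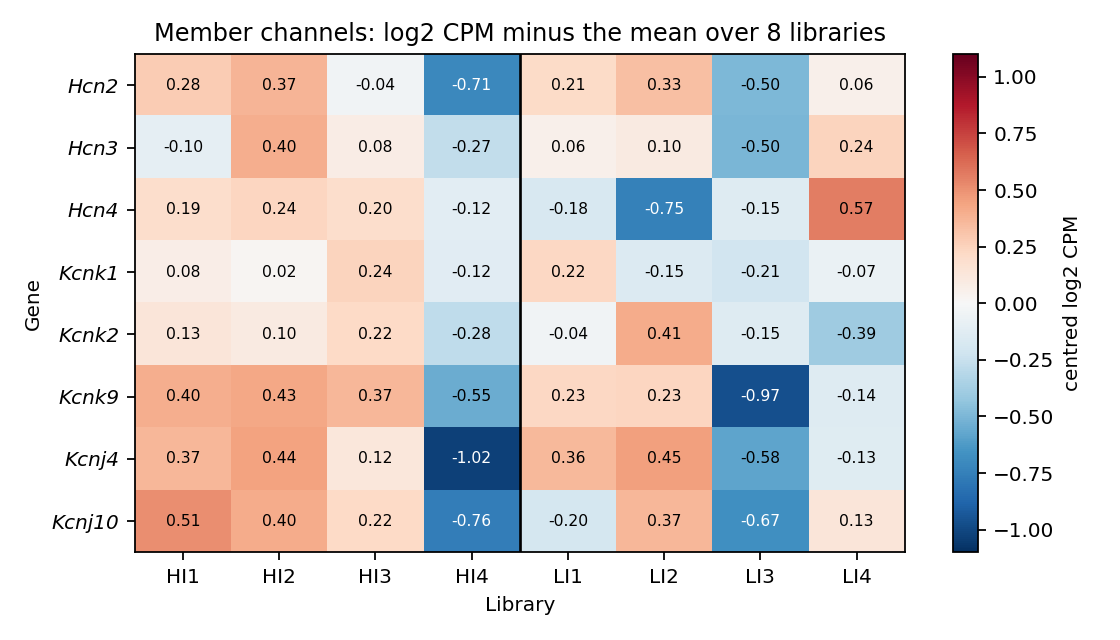
Cells give log2 CPM of each channel gene minus its mean over the 8 libraries, HI libraries left of the black line and LI right of it. HI4 and LI3 are negative in all 8 genes, reaching -1.02 for Kcnj4 in HI4 and -0.97 for Kcnk9 in LI3.

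The closest profiles among the members were those of Hcn2 and Kcnj4, whose centred log2 CPM differed by a root mean square of 0.16 over the 8 libraries. Many other genes were nearer to each: the nearest to Hcn2 were Slc27a1 (0.03) and Snx11 (0.04), and the nearest to Kcnj4 were Smpd1 (0.05) and Svop (0.06). For Kcnj10 they were Zbtb7c (0.10) and Elovl5 (0.13), and for Kcnk9 Sprn (0.10) and Sufu (0.11). Kcnk1 lay nearest to Clstn1 (0.07) and Lyrm9 (0.08), Kcnk2 to Them4 (0.10) and Doc2a (0.10), and Hcn3 to Gareml (0.10) and Orai3 (0.10). Hcn4 had no neighbour closer than Lef1 (0.17), one of the listed thalamic markers, and Mecom (0.17). With 8 libraries such closeness is a description of these profiles.

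The other genes that set the resting membrane were also not called. Of 35 listed (further K2P and Kir channels, the sodium leak complex, Clcn2 and the sodium pump) 26 were tested. In edgeR, 0 passed the adjusted threshold in either direction. An unadjusted p under 0.05 was found for 1 of the 26, against 4.16% of all tested genes. Fold changes were positive in 15 and negative in 11, with a median of 0.07 against -0.0069 over all tested genes. That median changed sign with LI3 left out (-0.011), and was 0.0032 with HI1 left out, 0.019 with HI3, 0.021 with LI4, 0.035 with HI4, 0.039 with HI2 and 0.101 with LI1. With both HI4 and LI3 left out it was 0.07. HI4 and LI3 both lay below the other 6 libraries in 9 of the 26 and both above in 2.

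The sodium leak channel genes had the smallest p of that list. Unc79, a large auxiliary protein of the sodium leak channel, stood at 105, 118, 99.7 and 111 CPM in HI1 to HI4, against 88.5, 97.4, 90.0 and 94.0 CPM in LI1 to LI4, a log2 fold change of 0.23 ± 0.10 (unadjusted p = 0.0399, adjusted p = 1.00, edgeR). Every HI library was higher than every LI library, as in 2.31% of tested genes. Nalcn, the pore of that leak channel, stood at 177.3, 174, 188 and 226 CPM in HI1 to HI4, against 159, 155, 177.3 and 157 CPM in LI1 to LI4, a log2 fold change of 0.24 ± 0.11 (unadjusted p = 0.0620, edgeR), with HI2 below LI3.

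Pex5l, the auxiliary HCN subunit TRIP8b that steers HCN channels to dendrites, stood at 107, 88.6, 95.2 and 75.7 CPM in HI1 to HI4, against 68.8, 101, 66.9 and 71.0 CPM in LI1 to LI4, a log2 fold change of 0.26 ± 0.16. The leak channel gene Kcnk10 had a log2 fold change of 0.28 ± 0.19. Kcnj13, a Kir channel known from choroid plexus, averaged 2.01 ± 1.96 CPM over the HI libraries and 0.691 ± 0.529 CPM over the LI libraries (SD, n = 4 each). Its log2 fold change was 1.53 ± 0.80 (95% interval -0.26 to 3.32, unadjusted p = 0.0859, edgeR). This rests on 3 to 47 reads per HI library and 0 to 12 reads per LI library. Kcnj13 was highest in HI1, at 4.86 CPM, where 3 meningeal markers summed to 409 CPM, against 30.2 to 113 CPM in the other HI libraries and at most 75.7 CPM in LI. Their part in the Kcnj13 value was not tested.

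**Figure D4:**
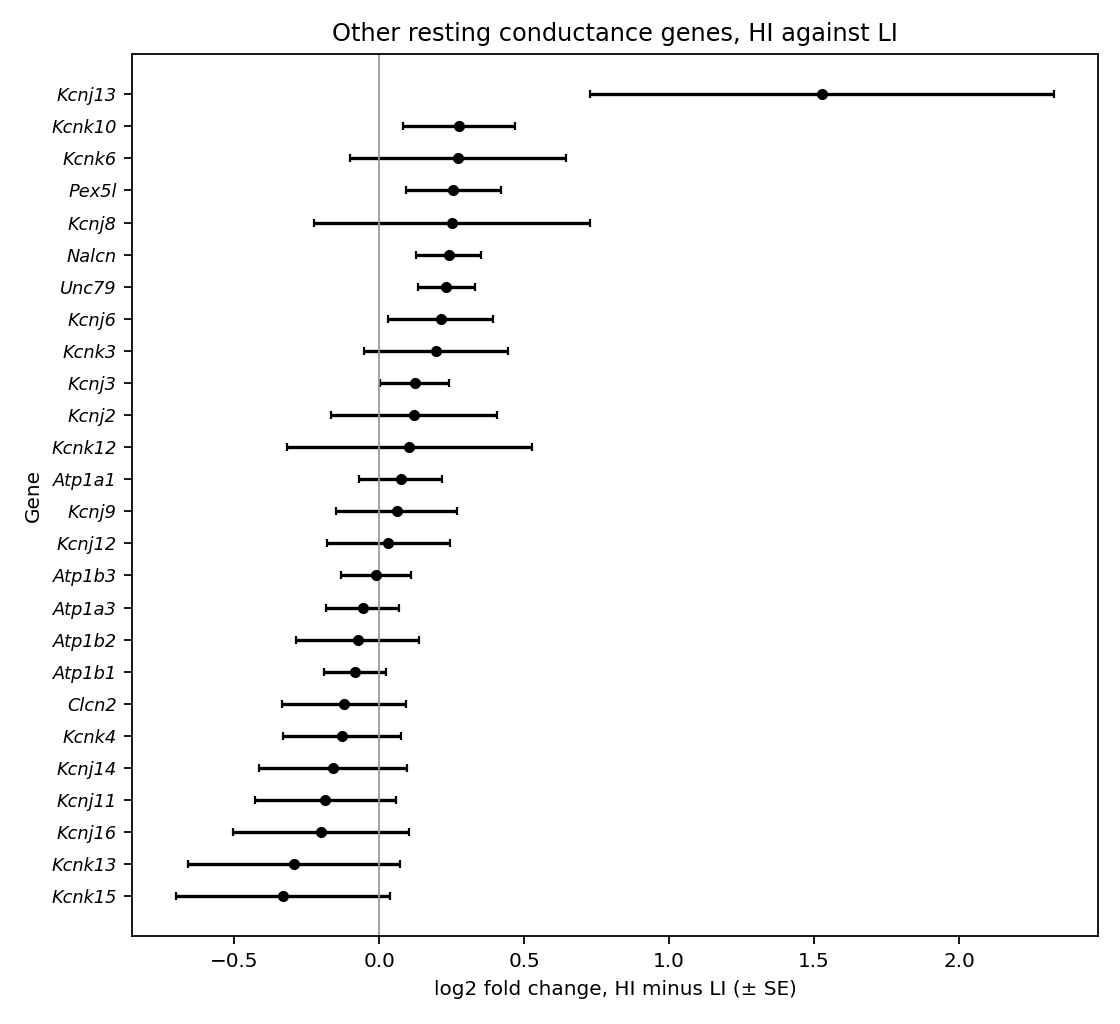
Points give the log2 fold change (HI minus LI, ± SE) of the 26 tested resting conductance genes outside the members, in order of value. Of these 15 lie right of 0 and 11 left, and Unc79 and Nalcn, at 0.23 and 0.24, have short error bars.

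Fisher's exact test on counts summed within each group, the test the series' design text names, gave calls where edgeR's test gave none. It called 4 of the 8 members at an adjusted p of 0.1, against 56.8% of all tested genes (12.7% higher and 44% lower in HI), and takes no account of the spread between libraries. Kcnk9 (log2 fold change 0.20, adjusted p = 0.0669) and Kcnj10 (0.13, adjusted p = 0.0721) were called higher by Fisher's exact test. Hcn2 (-0.14, adjusted p = 3.06e-05) and Kcnj4 (-0.10, adjusted p = 0.00292) were called lower. The median log2 fold change of all genes in these unscaled sums was -0.11, and relative to it Hcn2 was at -0.03 and Kcnj4 at 0.0073, while Kcnk9 was at 0.31 and Kcnj10 at 0.24. DESeq2, which uses the spread between libraries, called 0 of the 6 members that it gave an adjusted p, against 0.488% of the 7794 genes with one. It gave none for Hcn4 and Kcnk9, whose unadjusted p were 0.523 and 0.331.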

How the data were processed

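RNA-seq of medial prefrontal cortex homogenate was used for 4 HI and 4 LI libraries, grouped by the labels. Per the file headers, the authors deposited for each library expected counts (estimated reads per gene, not normalized), TPM, FPKM and transcript length. FPKM values, as deposited, were not used. The submitters' processing notes list Bowtie2 2.1.0. The counting program, build, annotation and strand setting were not given in the sources used here.

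Expected counts were rounded, filtered with filterByExpr (minimum count 10, minimum total 15), scaled by TMM and tested on 11631 genes with edgeR 4.0.16 in R 4.3.3 (quasi-likelihood, Benjamini-Hochberg over all genes, threshold 0.1). The SE is the absolute log2 fold change over the square root of F. CPM used TMM-scaled totals, and log2 CPM a prior count of 2. Alternatives used DESeq2 1.42.0, limma 3.58.1 and Fisher's exact test. The scripts were first checked on simulated counts with known changes; no value given here comes from them. No pair of replicates lay within sampling noise of each other.

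The members and gene lists were chosen with earlier results of these data known. Named beside the members were Pex5l, Nalcn, the listed genes with the smallest p (up to 6), and the 2 nearest profiles of each member. Some listed genes are not reported here and were left out of the list counts.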

Additional observations from a re-analysis of the deposited data

Results flagged for a closer look

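In each group of 4 libraries the gap between an end library and its neighbour was set against the group's whole range of log2 CPM (Dixon's criterion), in 16 groups over the 8 members; chance alone flags about 1 group in 20. Kcnk9 in HI4, at 8.78 CPM, lay far below the other HI libraries (16.8 to 17.5 CPM), its gap being 0.937 of the range. Hcn4 in HI4, at 11.0 CPM, lay below HI1, HI2 and HI3 (13.8 to 14.2 CPM), its gap being 0.868 of the range, but inside the LI range of 7.07 to 17.9 CPM.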

How the results depend on the processing

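The count of members past the threshold was 0 under each setting other than Fisher's exact test on summed counts, which called 4 members and 6602 genes; DESeq2 called 38 genes, 0 of the 6 members with an adjusted p among them (it gave none for Hcn4 and Kcnk9), and limma-voom 0 genes. Fisher's test put Hcn2 (-0.14), Kcnk9 (0.20) and Kcnj10 (0.13) past the threshold, and turned Hcn3 (-0.10), Kcnk2 (-0.0033) and Kcnj4 (-0.10, also past it). Kcnj4, at 0.00082 in all 8 libraries, also changed sign with RLE size factors (-0.0034), no low-count filter (-0.0068), DESeq2 (-0.0033), limma-voom (-0.047), limma on log2(TPM + 1) (-0.050) and log2(TPM + 0.1) (-0.051), the ribosomal RNA share as a covariate (-0.24), ribosomal RNA genes removed (-0.0050) and length correction (-0.065). That covariate, by far highest in HI2, also moved Hcn2 to -0.23, Kcnk2 to 0.010, Kcnk9 to 0.15 and Kcnj10 to 0.052. Hcn3 turned with it (-0.11) and, in an alternative chosen after seeing the data, without HI4 and LI3 (-0.0033), where Hcn2 turned too (0.0089). The turned values with an SE all lie within 1 SE of 0, and the cause was not tested. With each library left out in turn, Hcn2 ranged from -0.17 to 0.15, Hcn3 from -0.092 to 0.13, Kcnk2 from -0.043 to 0.24 and Kcnj4 from -0.16 to 0.24, each lowest without LI3 (Kcnk2 without LI4) and highest without HI4 (Kcnk2 without LI2). Hcn4 (0.0074 to 0.46), Kcnk1 (0.04 to 0.20), Kcnk9 (0.10 to 0.49) and Kcnj10 (0.06 to 0.43) kept their sign. The list of other resting conductance genes had 12 to 17 positive of 25 or 26 tested, and 18 of 32 with no filter; its median of 0.07 changed sign with Fisher's test (-0.032), was 0.022 with length correction and 0.041 with the ribosomal RNA covariate, and ranged from -0.011 to 0.101 with a library left out. With the replicate number as a block, the count of genes called was 0. Kcnj4 was then at -0.041 ± 0.23, its SE being 0.32 without the block. Deviations of same-numbered libraries correlated at 0.215, 0.536, -0.0532 and 0.0586, and HI4 correlated best with LI3 (0.782). HI1 and HI2 correlated with LI1 and LI2 at 0.215 to 0.536. Whether the replicate numbers reflect shared handling was not tested. With 4 libraries per group the intervals of the members spanned at least -0.18 to 0.39, so smaller differences could not be seen.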
